A study of Rattus norvegicus with 6 samples.

Results

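The genes described are 10 small leucine-rich proteoglycans of the disc matrix, namely Dcn, Bgn, Lum, Fmod, Prelp, Omd, Kera, Ogn, Epyc and Chad. They were chosen by gene name from the 30562 genes of the deposited count table, each name matched 1 row, and all 10 passed the filter on low counts. The libraries are bulk RNA of tail discs from male Sprague-Dawley rats of genotype WT. Their disc between Co6 and Co7 had been punctured with a needle at an age of 12 weeks. In the 3 Control libraries the disc received PBS by the study's text, and in the 3 AF-PTK@LEV@SPP1-labelled libraries it received 10 μL of a liposome fused with a bacterial membrane vesicle, which carries a peptide binding the annulus fibrosus and an siRNA against Spp1 at 1 mg/kg. Injections began 24 h after surgery, and the study's text gives 8 weeks of treatment. The sample records differ, since they give no treatment for the Control, a treatment of 14 days, and macrophages sorted by F4/80 and CD11b from discs of mice. Col2a1, the main collagen of cartilage and nucleus pulposus, had 13878 to 31889 CPM (read counts normalized for library size and composition) over the 6 libraries, whereas Adgre1, which encodes F4/80, had 15.3 to 42.9. The values are therefore described as those of disc tissue, and not as those of sorted macrophages.

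Small leucine-rich proteoglycans are secreted proteins with a horseshoe of leucine-rich repeats that bind collagen fibrils and set their diameter and spacing. Most carry chains of chondroitin, dermatan or keratan sulfate, and several bind growth factors or act on innate immune receptors when they are released from the matrix. In the intervertebral disc they are part of the collagen lamellae of the annulus fibrosus and of the matrix around the cells, and proteases cut them during degeneration.

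Control replicates 1, 2 and 3 held 17942989, 16565291 and 17489851 counts, and replicates 1, 2 and 3 of the other group held 17074981, 15560728 and 17855184. Replicates 2 and 3 of the Control were almost the same library. Their counts varied 1.33 times as much as sampling noise, with 16 of 14393 genes (0.111%) differing, while the other 5 pairs of libraries within a group had ratios of 51.3 to 107. These replicates were therefore summed in the fit, and their mean was taken as 1 sample in each mean and SD, which left 2 distinct Control samples against 3. A two-sided exact permutation test over 3 against 2 samples cannot go below p = 0.1. The study's methods describe separate rats for the libraries of a group, whereas Control replicates 2 and 3 differ far less than any other pair. Each p-value therefore sets a group difference against the spread estimated from these samples, and is not extended to other rats. Spp1, which the siRNA targets, stood at 8125, 4424 and 4428 CPM in the Control and at 8049.6, 6874 and 8437 CPM in the AF-PTK@LEV@SPP1-labelled libraries (log2 fold change 0.31, adjusted p = 0.628, edgeR). All 3 of the latter lay above Control replicates 2 and 3, with Control replicate 1 as high as they were, so every direction below refers to the labels. The study's methods give the siRNA as directed at the mouse gene.

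Of the 10 proteoglycan genes, Lum was called lower and Chad higher in the AF-PTK@LEV@SPP1-labelled libraries, and 8 were not called. A call means a Benjamini-Hochberg adjusted p under 0.05 in edgeR's quasi-likelihood test over all 15537 genes tested, of which 2.57% were called lower and 1.13% higher. The log2 fold changes of the 10 genes were negative for 5, among them Bgn whose sign was not stable, and positive for 5, with a median of 0.19 against 0.05 over all genes tested. The normalized levels of 6 of the 10 genes did not overlap between the groups, beside 45.8% of all genes tested, a share near that of the family, from which nothing particular to it is read. With the 6 libraries kept apart, Ogn was called lower as well as Lum, and Chad was called higher, in a fit in which 9.93% of 15042 genes were called lower and 8.2% higher.

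**Figure D1:**
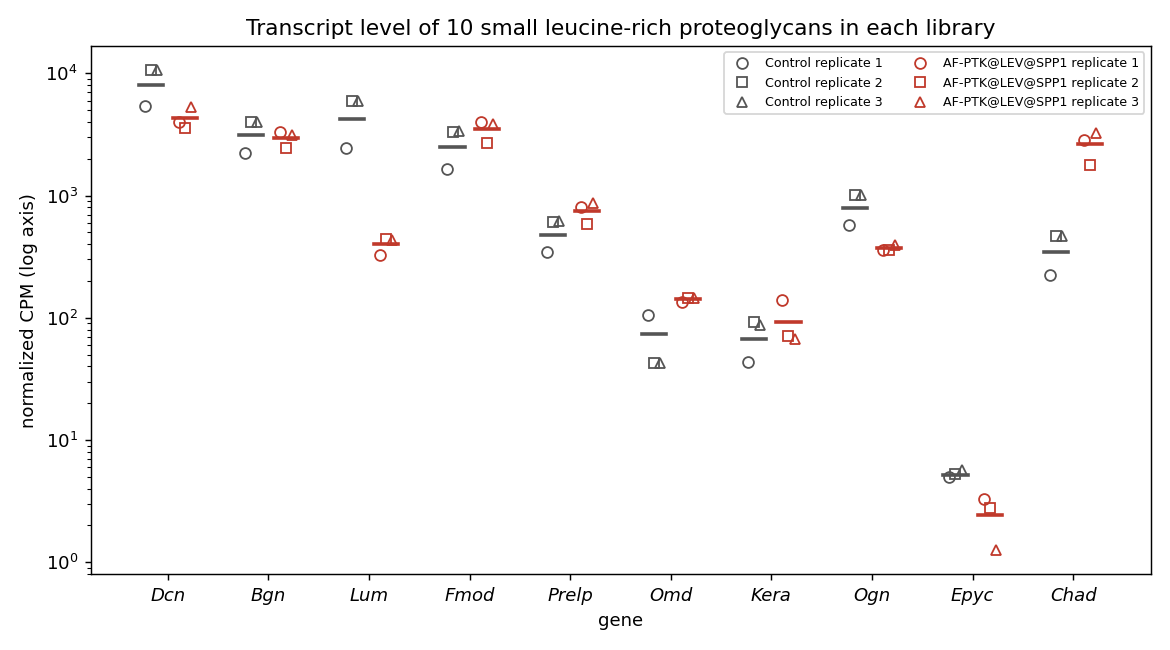
Normalized read counts in CPM (log axis) of the 10 small leucine-rich proteoglycan genes in each library, with Control in grey and AF-PTK@LEV@SPP1 in red, symbols for the replicates and a bar for the mean over distinct samples. Lum lies at 324 to 442 CPM in the AF-PTK@LEV@SPP1-labelled libraries and at 2475 to 5969 in the Control, and Chad lies at 1792 to 3254 against 222 to 468.

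Lum encodes lumican, a keratan sulfate proteoglycan that limits the thickness of collagen fibrils. Its identifier in the table is ENSRNOG00000004610, and it lies on the plus strand of chromosome 7 from 32358614 to 32365793. The reads counted on Lum were 48171, 92045 and 97511 in Control replicates 1, 2 and 3, and 5516, 7364 and 7659 in the AF-PTK@LEV@SPP1-labelled libraries. Every library of the latter group was thus far below every Control library before any scaling. After scaling, Lum had 2475, 5939 and 5969 CPM in the Control and 324, 442 and 435 CPM in the other group. Control replicate 1 had the lowest Lum level of the Control, and it was still several times above the highest AF-PTK@LEV@SPP1-labelled library. The mean level fell from 4215 ± 2460.0 CPM (SD, n = 2 distinct samples) to 401 ± 66.3 CPM (SD, n = 3), which is 10.5-fold lower. The log2 fold change was -3.40 (standard error 0.43, 95% interval -4.49 to -2.31, adjusted p = 0.0303, edgeR), and Lum stood at place 209 of all genes tested when ordered by p. In bulk tissue, fewer cells that express a gene and less of its RNA in each cell cannot be told apart, which holds for each result here. The call was lost in edgeR without replicate 1, 2 or 3 labelled AF-PTK@LEV@SPP1 (adjusted p = 0.0731, 0.0974 and 0.151) and without the Control pair (0.0838), while the log2 fold change stayed between -3.90 and -2.63 in 17 alternatives.

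Chad encodes chondroadherin, a cartilage protein that binds type II collagen and integrins on chondrocytes. Its identifier is ENSRNOG00000003304, and it lies on the plus strand of chromosome 10 from 79511931 to 79515940. The reads counted on Chad were 4318, 7235 and 7642 in the Control, and 48897, 29825 and 57263 in the AF-PTK@LEV@SPP1-labelled libraries. The lowest of the latter was several times the highest Control count. Scaled to CPM, the levels were 222, 467 and 468 in the Control and 2873, 1792 and 3254 in the other group. Again Control replicate 1 was the lowest Control library, which for Chad placed it farther from the AF-PTK@LEV@SPP1-labelled libraries and for Lum placed it nearer to them. Chad rose from 345 ± 174 CPM (SD, n = 2 distinct samples) to 2639.8 ± 758 CPM (SD, n = 3), or 7.66-fold. The log2 fold change was 2.93 (standard error 0.48, 95% interval 1.71 to 4.16, adjusted p = 0.0454, edgeR), close to the threshold. When libraries were left out, the call was lost in edgeR without Control replicate 1 (adjusted p = 0.0946), without replicate 1, 2 or 3 of the other group (0.0839, 0.0893 and 0.163) and without the Control pair (0.118), with log2 fold changes from 2.49 to 3.57 over 17 alternatives.

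Decorin and biglycan are the closely related class I members, which carry chondroitin or dermatan sulfate and bind transforming growth factor beta. Dcn, which encodes decorin, had 5423, 10680.1 and 10655 CPM in Control replicates 1, 2 and 3 and 3978, 3561 and 5312 CPM in the AF-PTK@LEV@SPP1-labelled libraries. The groups did not overlap, but Control replicate 1 was barely above the highest library of the other group. The log2 fold change of Dcn was -0.91 (standard error 0.40, 95% interval -1.92 to 0.09, adjusted p = 0.226, edgeR), and it was not called in any of 17 alternatives. Bgn, which encodes biglycan, had 2246, 4007 and 4011 CPM in the Control and 3316, 2449 and 3161 CPM in the other group. All 3 AF-PTK@LEV@SPP1-labelled libraries lay between Control replicate 1 and the Control pair. Its log2 fold change of -0.08 (95% interval -0.93 to 0.77, adjusted p = 0.907, edgeR) had no stable sign, since it was 0.40 without the Control pair and 0.051 without replicate 2 labelled AF-PTK@LEV@SPP1.

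Fibromodulin, PRELP, osteomodulin and keratocan belong with lumican to class II, whose members bind fibrillar collagen and mostly carry keratan sulfate or sulfated tyrosines. Fmod, the gene of fibromodulin, had 1655, 3326 and 3363 CPM in the Control and 4027, 2673 and 3885 CPM in the AF-PTK@LEV@SPP1-labelled libraries. Prelp, whose product also binds heparan sulfate, had 342, 604 and 625 CPM in the Control and 801, 588 and 867 CPM in the other group. For both genes replicates 1 and 3 labelled AF-PTK@LEV@SPP1 were above every Control library and replicate 2 was below the Control pair, so the groups overlapped. The log2 fold changes were 0.49 for Fmod (95% interval -0.51 to 1.501, adjusted p = 0.476, edgeR) and 0.65 for Prelp (-0.18 to 1.47, adjusted p = 0.277), and neither gene was called in any of 17 alternatives.

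Omd encodes osteomodulin, known from mineralized matrix, and Kera encodes keratocan, best known from the cornea. Omd had 105, 42.6 and 42.4 CPM in the Control and 135, 146 and 144 CPM in the AF-PTK@LEV@SPP1-labelled libraries. The latter were tightly grouped, and the spread of Omd came from Control replicate 1, which was closer to them than to the Control pair. Its log2 fold change was 0.94 (standard error 0.38, 95% interval -0.03 to 1.92, adjusted p = 0.206, edgeR). Without Control replicate 1, which leaves the Control pair as a lone sample assumed to vary like the other group, the log2 fold change was 1.73 and Omd was called (adjusted p = 0.0377, edgeR). Kera had 43.5, 92.4 and 86.9 CPM in the Control and 139, 70.2 and 66.9 CPM in the other group. Only replicate 1 labelled AF-PTK@LEV@SPP1 was above the Control pair, and the log2 fold change of 0.46 had a 95% interval of -0.71 to 1.63 (adjusted p = 0.566, edgeR).

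Osteoglycin and epiphycan are class III members, the latter known from growth plate cartilage. Ogn, the gene of osteoglycin, had 574, 1016 and 1005 CPM in the Control and 361, 362 and 397 CPM in the AF-PTK@LEV@SPP1-labelled libraries. The groups did not overlap, and the AF-PTK@LEV@SPP1-labelled libraries differed from each other far less than those of the Control did. The log2 fold change of Ogn was -1.09 (standard error 0.27, 95% interval -1.76 to -0.42), with an adjusted p of 0.0893 in edgeR that became 0.0219 when the 6 libraries were kept apart. Epyc, the gene of epiphycan, was counted 96, 81 and 92 times in the Control and 56, 46 and 22 times in the other group, that is at 4.93, 5.23 and 5.63 CPM against 3.29, 2.76 and 1.25 CPM. At this depth each Epyc value rests on fewer than 100 reads. The groups did not overlap, and the log2 fold change of -1.09 had a 95% interval of -2.19 to 0.01 (adjusted p = 0.199, edgeR).

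The makeup of the family was also described within each library, where no scaling between libraries is needed. Reads on the 10 genes were 1.42%, 2.45% and 2.45% of all counts in Control replicates 1, 2 and 3, and 1.59%, 1.29% and 1.73% in the AF-PTK@LEV@SPP1-labelled libraries. By this total Control replicate 1 lay among the libraries of the other group, away from the Control pair. By the shares of Lum, Chad, Dcn, Fmod and Prelp among those reads it lay near the Control pair, and by the share of Omd it lay with the other group. These are shares of reads and depend on transcript length as well as on the number of molecules, so they are compared between libraries and not between genes. The widest 95% Wilson interval of any share below was 0.398 percentage points, and such intervals cover counting error only.

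Lum took 18.9%, 22.7% and 22.8% of the family's reads in Control replicates 1, 2 and 3, and 2.03%, 3.66% and 2.48% in the AF-PTK@LEV@SPP1-labelled libraries. Chad took 1.69%, 1.78% and 1.78% in the Control and 18.0%, 14.8% and 18.6% in the other group. Lumican thus went from 20.8% ± 2.70 (SD, n = 2) to 2.73% ± 0.841 (SD, n = 3) of the family's reads, and chondroadherin from 1.74% ± 0.0626 to 17.1% ± 2.02. The share of Dcn was 41.4%, 40.8% and 40.6% in the Control against 24.9%, 29.5% and 30.3%. Fmod held 12.6%, 12.7% and 12.8% in the Control against 25.2%, 22.1% and 22.2%, and Prelp held 2.62%, 2.31% and 2.38% against 5.02%, 4.86% and 4.95%. Whereas the CPM levels of Fmod and Prelp overlapped between the groups, their shares of the family did not. Bgn held 17.2%, 15.3% and 15.3% in the Control and 20.8%, 20.3% and 18.0% in the other group, while Ogn held 4.39%, 3.88% and 3.83% against 2.26%, 2.99% and 2.26%. For Bgn, Control replicate 1 was nearer to replicate 3 of the other group than to the Control pair. Omd held 0.802%, 0.163% and 0.162% in the Control and 0.849%, 1.21% and 0.821% in the other group, so that Control replicate 1 was just below the latter.

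For 9 of the 10 genes the shares did not overlap between the groups, the exception being Epyc with at most 0.0377% of the family's reads. The share of 45.8% given above is for levels of all genes, and no like share over all genes was computed for parts of a total, so nothing particular to the family is read from this count. Shares sum to the whole, so a lower Lum share raises others and a higher Chad share lowers others. Over the 8 other genes, a total chosen after seeing the data, the shares of 7 did not overlap, and Epyc was again the exception. These shares also sum to the whole, so the lower share of Dcn raises those of other genes. In that total Dcn went from a mean of 53.0% to 35.2%, Fmod from 16.4% to 28.9% and Prelp from 3.20% to 6.17%. The direction of the shares of these 3 genes was the same with and without Lum and Chad in the total. For Fmod and Prelp this is no separate result, given the lower share of Dcn.

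**Figure D2:**
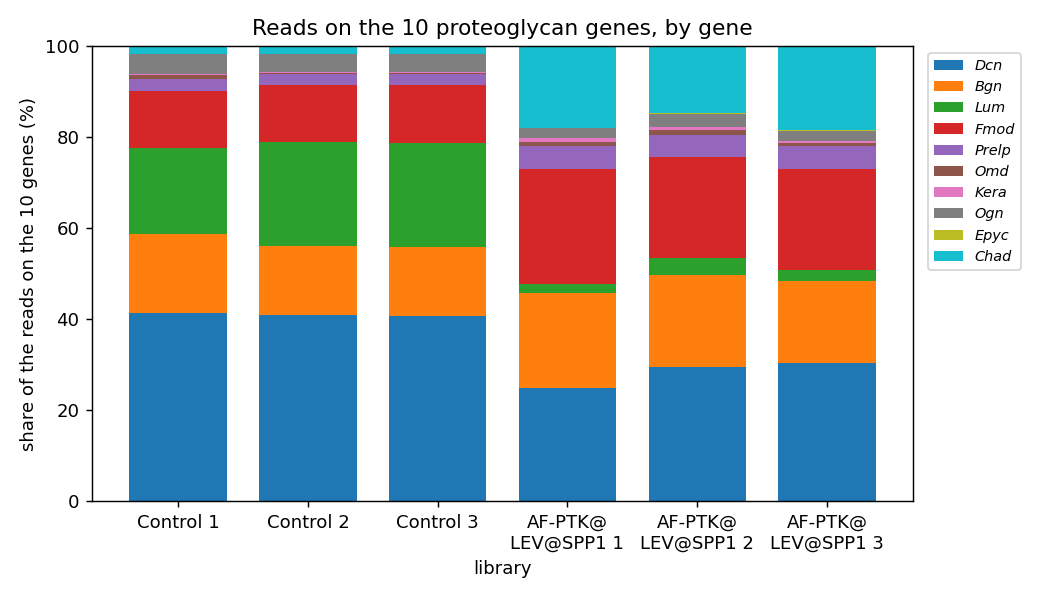
Share of the reads counted on the 10 small leucine-rich proteoglycan genes that fell on each gene (percent, stacked bars from 0 to 100), for each of the 3 Control and 3 AF-PTK@LEV@SPP1 libraries. Lum takes 18.9% to 22.8% in the Control bars and 2.03% to 3.66% in the others, and Chad takes 1.69% to 1.78% against 14.8% to 18.6%.

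Ratios of read counts between members of one library need no total, and they are given as descriptions with no test, since the pairs were chosen after the values were seen. The reads on Lum were 1.496, 1.786 and 1.775 times those on Fmod in the Control, and 0.0805, 0.166 and 0.112 times in the AF-PTK@LEV@SPP1-labelled libraries. These related class II genes thus differed in their ratio by 14.3-fold between the groups, with no overlap. The ratio of Dcn to Bgn was 2.41, 2.67 and 2.66 in the Control and 1.20, 1.45 and 1.68 in the other group, a 1.77-fold difference without overlap. The ratio of Chad to Fmod was 0.134, 0.140 and 0.139 in the Control against 0.714, 0.670 and 0.838, which is 5.39-fold higher. In each of these ratios Control replicate 1 lay near the Control pair, although its CPM levels of all 5 genes were the lowest of the Control. The ratio of Prelp to Fmod was 0.207, 0.181 and 0.186 in the Control and 0.199, 0.220 and 0.223 in the other group, so it overlapped. The ratio of Ogn to Omd was 5.47, 23.9 and 23.7 in the Control and 2.66, 2.48 and 2.76 in the other group, and here Control replicate 1 stood nearer to the AF-PTK@LEV@SPP1-labelled libraries.

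Most of the family lies in 3 clusters, and family genes with negative and with positive log2 fold changes stood side by side in each of them. On chromosomes 7 and 13 this rests on Kera and Optc, whose 95% intervals of -0.71 to 1.63 and -1.15 to 0.50 include both signs. Coordinates are those of the deposited table, whose genome build is not named and whose starts equal those of GRCr8 for 0 of 18 family genes. On chromosome 7, Dcn, Lum, Kera and Epyc follow each other on the plus strand with gaps of 37.3, 31.6 and 31.8 kb and no protein-coding gene between them. Lum, which fell by 3.40 on the log2 scale, lies between Dcn at -0.91 and Kera at 0.46, neither of which was called. On chromosome 17, Ogn, Omd, Aspn and Ecm2 lie in this order by coordinate on the minus strand, with gaps of 7.48, 12.2 and 16.2 kb, the last of which holds 1 other protein-coding gene, and log2 fold changes of -1.09, 0.94, -2.58 and 1.36. The signs alternate along this cluster, and only Aspn was called. On chromosome 13, Prelp lies 5.30 kb from Optc on the minus strand and 113 kb from Fmod on the plus strand, and none of these was called. The log2 fold changes were 0.65 for Prelp, -0.32 for Optc and 0.49 for Fmod, and that of Optc was 0.28 without the Control pair. Chad on chromosome 10 and Bgn on chromosome X, from 151197273 to 151209461, stand apart from the clusters.

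**Figure D3:**
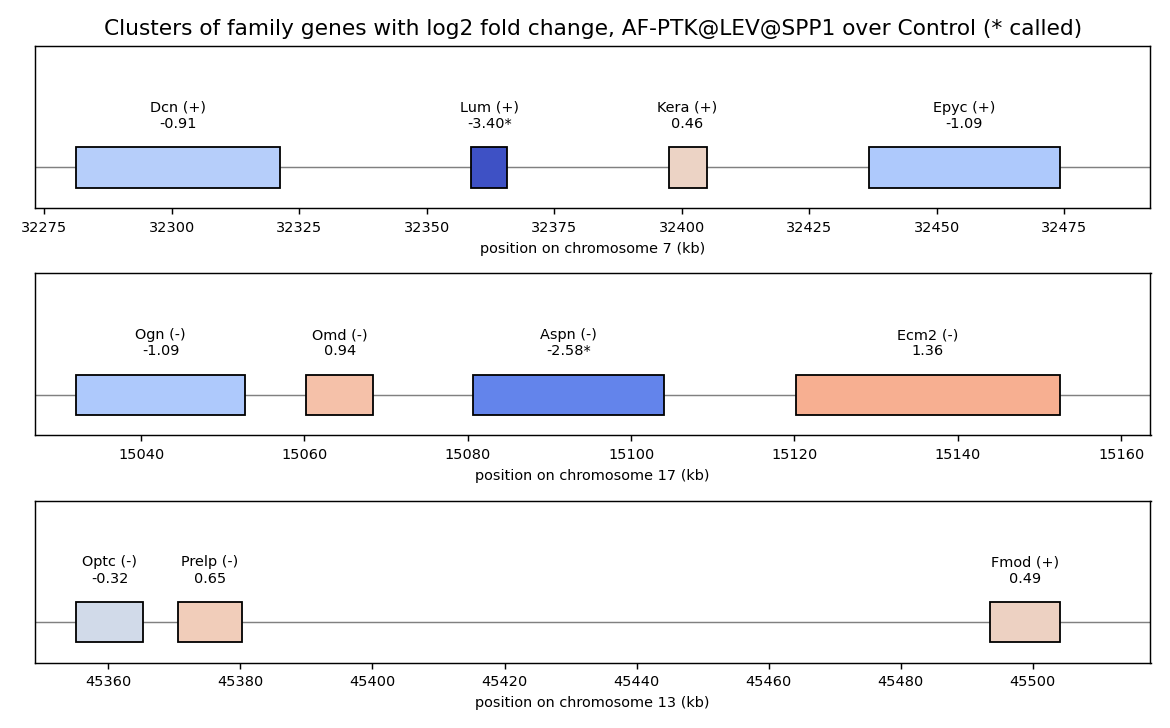
Position in kb of the family genes of 3 clusters in the deposited annotation (boxes to scale, strand in brackets), coloured blue to red by log2 fold change of AF-PTK@LEV@SPP1 over Control, which is printed over each box with a star where the gene was called. Neighbours can differ in sign, with Lum at -3.40 beside Kera at 0.46, and Omd at 0.94 between Ogn at -1.09 and Aspn at -2.58.

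The spans of some members overlap that of a gene on the opposite strand. The sources used here do not state whether strand was used in counting, although the library kit marks strand. Ogn, Omd, Aspn and Ecm2 all lie within the span of Cenpp, which had 16 to 65 reads in each library against at least 660 on each of these genes. Chad lies within the span of Acsf2, which had 271 to 493 reads against at least 4318 on Chad. Only whole gene spans were compared, so whether the exons of these pairs overlap was not examined. Where exons did overlap, reads could not be told apart without strand. The reads given to the opposite genes were few beside those given to the proteoglycans.

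Promoter windows were taken from RefSeq for the GRCr8 build, as the 250 bases before the start that its promoter table uses for each gene, and 7 of the 10 genes had an entry. The letters TATAAA, searched on both strands, occurred in the windows of Chad and Ogn, that is in 2 of 7, and in 12.93% of 33469 rat windows of the same length. TGANTCA, the AP-1 motif, and ACAATG, a SOX core, occurred in 0 of the 7 windows, against 6.34% and 11.08% of all windows. In Ogn there was a match on each strand, at bases 224 to 219 and 222 to 217 before the start, whereas in Chad it spanned bases 29 to 24 before the start on the coding strand. The Chad window, from chr10:80008795-80009044 on the plus strand of GRCr8, is shown because Chad was the member that rose, with TATAAA in capitals. The window of Lum lies wholly within the RefSeq span of the gene, downstream of the first base of that span, and is not shown.
Chad: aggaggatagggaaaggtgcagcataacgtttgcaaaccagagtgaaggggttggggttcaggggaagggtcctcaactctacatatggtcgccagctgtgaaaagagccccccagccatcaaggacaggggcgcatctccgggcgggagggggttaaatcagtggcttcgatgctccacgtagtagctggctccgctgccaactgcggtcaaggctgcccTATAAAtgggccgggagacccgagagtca
A match is a description of these letters and not of a bound factor.

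The remaining genes of the family were read as a list of 9, of which Podn was not analysed here and Nepn had 0, 0 and 0 reads in the Control and 5, 1 and 0 in the other group, too few for a test. Of the 7 tested, 2 were called lower and 0 higher, beside 2.57% and 1.13% of all genes tested. Aspn, the gene of asporin, a class I relative of decorin without a glycosaminoglycan chain, had 376, 787 and 791 CPM in the Control and 121, 67.1 and 105 CPM in the AF-PTK@LEV@SPP1-labelled libraries. It fell by 2.58 on the log2 scale (standard error 0.40, adjusted p = 0.0419, edgeR) with no overlap. The call of Aspn was lost with limma-voom (adjusted p = 0.0543) and in edgeR without replicate 1, 2 or 3 labelled AF-PTK@LEV@SPP1 (0.0756, 0.105 and 0.171) or the Control pair (0.140). Tsku, the gene of tsukushi, a secreted modulator of growth factor signalling, had 60.3, 68.4 and 67.7 CPM in the Control and 29.0, 20.4 and 21.3 CPM in the other group. Its Control libraries were alike, replicate 1 included, and it fell by 1.45 on the log2 scale (standard error 0.19, adjusted p = 0.0303, edgeR). The call of Tsku was lost in edgeR without Control replicate 1 (0.0662), without replicate 2 or 3 of the other group (0.0888 and 0.150) and without the Control pair (0.143). Ecm2, Podnl1 and Nyx had log2 fold changes of 1.36, -1.54 and 1.71 without overlap and adjusted p of 0.0746, 0.0649 and 0.179 in edgeR, while Optc and Chadl overlapped, at -0.32 and -0.44 (adjusted p of 0.569 and 0.528). Levels of 5 of the 7 did not overlap, beside 45.8% of all genes tested. Asporin and lumican were thus called lower beside decorin and biglycan that were not called.

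The ratio of Aspn to Ecm2, the next family gene of its cluster, was 4.52, 5.77 and 5.93 in the Control and 0.440, 0.299 and 0.306 in the AF-PTK@LEV@SPP1-labelled libraries. This ratio thus differed by 15.002-fold between the groups, with no overlap, and is a description with no test, since the pair was chosen after the values were seen. Ecm2 encodes a matrix protein with leucine-rich repeats, and its levels were 83.3, 136 and 133 CPM in the Control against 274, 224 and 342 CPM.

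Genes that act with the proteoglycans were read as lists. Of 13 collagen genes, which cover fibrillar and fibril-associated collagens and the microfibrillar type VI, 0 were called, with a median log2 fold change of -0.38. Col1a1 and Col1a2, the chains of type I collagen, stood at 0.48 and 0.79 on the log2 scale (adjusted p = 0.582 and 0.328, edgeR). Of the 13, 8 had negative log2 fold changes like Lum, and 2 were called lower with the 6 libraries kept apart, where 9.93% of all genes were. Named after their values were seen, Col12a1, Col3a1 and Col5a1 stood at -2.55, -1.26 and -1.14 without overlap (adjusted p = 0.0728, 0.144 and 0.193, edgeR), though for Col5a1 the nearest libraries were at 984 and 966 CPM. Col1a1 and Col1a2, with positive values, did not overlap either. The levels of Col1a1 were 31931, 44863 and 45168 CPM in the Control and 64039.6, 45767 and 51108 CPM in the other group.

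Of 7 genes that build the linkage of glycosaminoglycan chains to the core protein, 0 were called, with a median log2 fold change of -0.26. Xylt1, which adds the first sugar, stood at 0.96 on the log2 scale (adjusted p = 0.111, edgeR), and B3gat3, which completes the linkage, had -0.27 (adjusted p = 0.212). Of 8 genes that modify dermatan sulfate or build keratan sulfate, 0 were called lower and 1 higher, where all genes tested had 2.57% and 1.13%, with a median of -0.39. B4galt4, a galactosyltransferase of keratan sulfate, rose from 5.50, 6.13 and 6.12 CPM to 12.99, 11.3 and 14.8 CPM (log2 fold change 1.16, adjusted p = 0.0444, edgeR). Its call was lost with limma-voom (0.0512) and in edgeR without Control replicate 1 (0.122), without replicate 1, 2 or 3 of the other group (0.0858, 0.0967 and 0.173) and without the Control pair (0.183). Dse, an epimerase that makes dermatan sulfate, stood at -0.76 on the log2 scale (adjusted p = 0.0882, edgeR).

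Of 9 proteases known to cut members of the family, 6 were called lower and 0 higher, with a median log2 fold change of -2.39, beside 2.57% called lower and a median of 0.05 over all genes tested. This list was chosen with earlier results of these data known, so the count is a description only. Mmp3, or stromelysin, had 919.9, 1743 and 1788 CPM in the Control and 89.6, 97.0 and 77.7 CPM in the AF-PTK@LEV@SPP1-labelled libraries (log2 fold change -3.93, adjusted p = 0.0194, edgeR). Mmp14, a collagenase of the cell surface that cuts lumican, fell by 2.50 on the log2 scale (adjusted p = 0.0260, edgeR), while the collagenase Mmp13 stood at -2.92 (adjusted p = 0.0196) and the aggrecanase Adamts4 at -2.97 (adjusted p = 0.0316). Mmp2 and Adamts5, named after their values were seen, were the others. The count of 6 became 0 in edgeR without replicate 1, 2 or 3 labelled AF-PTK@LEV@SPP1 or without the Control pair, and 4 with limma-voom. All of these are RNA levels, which do not show whether the proteoglycans were cut. A link between the levels of these proteases and those of the proteoglycan genes was not tested.

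Of 10 growth factors and receptors that bind members of the family, 1 was called lower and 0 higher (2.57% and 1.13% over all genes tested), with a median of -0.30. Tlr2, an innate immune receptor that biglycan binds, had 90.8, 80.3 and 80.2 CPM in the Control and 8.17, 16.6 and 18.9 CPM in the other group (log2 fold change -2.55, adjusted p = 0.0349, edgeR). Its call was lost in edgeR without Control replicate 1 (0.0820), without replicate 2 or 3 of the other group (0.0999 and 0.137) and without the Control pair (0.137). Tgfb2, a ligand bound by decorin and biglycan, and Lrp1, a receptor that takes up decorin, stood at -1.20 and -0.26 on the log2 scale (adjusted p = 0.110 and 0.649, edgeR).

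Cell markers were read in the same way, because a disc sample can hold annulus, nucleus, endplate, bone, muscle, fat, marrow and blood. Of 10 chondrocyte markers 0 were called, and their summed level, led by Col2a1, was 21998, 29377 and 29244 CPM in the Control and 37483, 27044 and 40477 CPM in the AF-PTK@LEV@SPP1-labelled libraries, with Matn1 at 0 in a Control library. This sum rests mostly on Col2a1, and the median log2 fold change of the list was -0.46, with 6 of the 10 negative, so most of these markers differed in sign from Chad. Of 8 annulus and tendon markers 0 were called lower and 1 higher (Myoc, named after its values were seen), beside 2.57% and 1.13% of all genes tested. Their log2 fold changes were negative for 4 and positive for 4, with a median of -0.18. Their sum was 4834, 13238 and 13292 CPM in the Control, led by Col12a1, and 5694, 3981 and 6695 CPM in the other group, led by Comp. Like the family's total, this sum placed Control replicate 1 among the libraries of the other group. Of 6 nucleus pulposus and notochord markers 0 were called, with a median log2 fold change of 2.38, and their sum, led by Cd24 and with Shh at 0 in a Control library, was 760.4, 328 and 321 CPM against 4223, 1501 and 1783 CPM. With the 6 libraries kept apart, where Shh was not tested, 2 of these markers were called higher, in the fit in which 8.2% of all genes were. This sum and Chad were both higher in every AF-PTK@LEV@SPP1-labelled library, as was the sum of fat markers given below. Within the Control, replicate 1 had the highest nucleus pulposus sum and the lowest Chad level. That library was also the lowest of the Control for Dcn, Bgn, Fmod, Lum, Prelp, Ogn and Kera.

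Of 6 fat markers 0 were called, with a median log2 fold change of 2.66 and sums led by Fabp4 of 410, 67.0 and 70.9 CPM against 1065, 1670.5 and 730.0 CPM. Of 6 skeletal muscle markers 0 were called. Their sum was 852, 1084 and 1098 CPM in the Control, led by Myh4, and 872, 8999 and 2359 CPM in the other group, led by Acta1. Of 6 erythroid markers 0 were called, with sums led by Hba-a1 of 2392, 3197 and 3285 CPM against 2505, 20482 and 14058 CPM. Of 6 neutrophil markers 0 were called, with sums led by S100a9 or S100a8 of 1087, 158 and 149 CPM against 276, 2780.2 and 3856 CPM. Muscle, erythroid and neutrophil sums were thus high in replicates 2 and 3 labelled AF-PTK@LEV@SPP1 and not in replicate 1, and the neutrophil sum was also higher in Control replicate 1 than in the Control pair. Of 8 macrophage markers 1 was called lower (Cd68, named after its values were seen), beside 2.57% of all genes tested. The median log2 fold change of this list was -0.82, with 7 of the 8 negative. Its sums, led by Lyz2, were 2788, 1876 and 1854 CPM against 623, 1801 and 1832 CPM. Of 8 osteoblast markers 0 were called, with sums of 4840.2, 1866 and 1864 CPM against 2299.8, 3257 and 1904 CPM. These sums were led by Ibsp, or by Bglap in replicate 3 labelled AF-PTK@LEV@SPP1. Omd, like this bone sum and the nucleus pulposus, fat, macrophage and neutrophil sums, was higher in Control replicate 1 than in the Control pair. In every AF-PTK@LEV@SPP1-labelled library the bone sum was below that of Control replicate 1, whereas Omd was above it. Of 5 endothelial markers 0 were called, with sums led by Pecam1 of 462, 569 and 555 CPM against 345, 400.0 and 399 CPM. Their log2 fold changes were negative for 4 of the 5. With the 6 libraries kept apart 3 were called lower, in the fit in which 9.93% of all genes were. The part of nucleus pulposus, annulus, cartilage, fat, muscle, erythroid, neutrophil, bone, macrophage or endothelial content in the levels of the proteoglycan genes was not tested.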

How the data were processed

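The authors deposited counts of reads per Ensembl rat gene in 6 libraries, one column each, without normalization. The submitters' processing notes list FastQC, Trimmomatic, HISAT2, featureCounts and DESeq2 without versions, and the mouse build mm10, although the identifiers are those of rat genes. The counting of strand and of shared reads is not given in the sources used here. Columns named IVD were read as Control, since the study calls its PBS group by the degenerated disc.

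The test used edgeR 4.0.16 under R 4.3.3 (trimmed mean of M-values, filterByExpr with a minimum count of 10, quasi-likelihood test, Benjamini-Hochberg over all genes tested, threshold 0.05), after the near-identical Control replicates 2 and 3 were summed. Intervals of 95% use the quasi-likelihood degrees of freedom and are unadjusted. CPM were scaled over the 6 libraries. With 15560728 to 17942989 counts per library, 3 counts are 0.167 to 0.193 CPM. The code was tested on simulated counts. Members and gene lists were chosen with earlier results of these data known. All 10 members and the 9 other family genes are named. Of each other pathway list, up to 4 called genes with the smallest adjusted p are named, or the 2 with the highest mean CPM where fewer than 2 were called. Of each marker list the most abundant gene is named, with any other that led the sum in some libraries. Krt19, Mylpf and Podn were not analysed here. Names were matched to GRCr8 RefSeq tables. Alternatives used DESeq2 1.42.0, limma-voom (limma 3.58.1), other scalings, filters and thresholds, the replicate number as a block, and left-out libraries.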

Additional observations from a re-analysis of the deposited data

How the results depend on the processing

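Over 17 alternatives with a log2 fold change, Lum stayed lower (called in 13) and Chad higher (called in 11), Aspn lower (11) and Tsku lower (13). Over the members, the other family genes and the pathway genes named by rule, log2 fold changes kept direction and side of the threshold in 456 cases, gained a call in 16, lost it in 47 and changed sign in 7. Bgn turned to 0.0035 with limma-voom and 0.40 without the Control pair, and ran from -0.44 to 0.051 when each replicate was left out. Chadl ran from -0.63 to 0.093 when each replicate was left out and from -0.84 to 0.093 over all 17, and without the Control pair Optc, Dsel and Lrp1 stood at 0.28, 0.059 and 0.20.

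Against 575 genes called, of them 400 lower and 175 higher, 2727 were called with the 6 libraries kept apart (1494 lower, 1233 higher), 2499 with DESeq2 (1420 lower, 1079 higher), 1687 at an adjusted p under 0.10 (1000 lower, 687 higher), 3 without the Control pair, and 0 to 566 without each replicate. Without replicate 2 or 3 labelled AF-PTK@LEV@SPP1 edgeR called 0 genes, with 3109 and 2699 at an unadjusted p under 0.05, and no other tool was run on these sets. Without replicate 1 of that label it called 113, and without Control replicate 1 it called 280.

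The members called lower were 2 with the 6 libraries kept apart, with DESeq2 and at 0.10, where Ogn joined Lum. Without the Control pair 0 members were called, 0 lower and 0 higher, and without each replicate 0 to 2 were, with 0 to 1 lower and 0 to 1 higher. Of the 5 other pathway lists 8 genes were called, against 16 with the 6 libraries kept apart, 17 with DESeq2, 5 with limma-voom, 13 at 0.10, 0 without the Control pair and 0 to 8 without each replicate. The proteases called lower were 0 without the Control pair and 0 to 6 without each replicate. Fewer samples enter the fits that leave libraries out; for the other changes the cause was not tested.

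A replicate block was fitted only with the 6 libraries kept apart, so the near-identical Control replicates entered as separate samples. This fit gave 741 calls, of them 434 lower and 307 higher, against 2727 with the libraries kept apart and no block. With the block 1 member was called lower (Lum) and 0 higher. Chad had an adjusted p of 0.0504 and Aspn 0.0575 in edgeR, against 0.00844 and 0.00804 without the block. With the block 5 proteases were called lower, beside 434 of 15042 genes. Shh was not tested in this fit, and 4 of the other nucleus pulposus and notochord markers were called higher, beside 307 of 15042 genes. A block with the Control replicates summed was not run. Deviations from the group means of same-numbered libraries correlated at -0.33, -0.28 and -0.08, so the numbers were not read as pairing the samples.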
